A study of Mus musculus with 4 samples.

Results

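Oxidative phosphorylation genes were followed in Ly6C-high classical monocytes sorted from bone marrow at a young and an old age. The set comprised every measured protein-coding gene whose symbol starts with Ndufa, Ndufb, Ndufc, Ndufs, Ndufv, Uqcr, Cox4i, Cox5, Cox6, Cox7, Cox8, Sdh, Atp5 or mt-, which gave 109 of the 27998 genes in the files. Of these, 96 were nuclear genes and 13 were the protein genes of mitochondrial DNA. All mice were wild-type C57BL/6, with 5 young (14 weeks) and 5 old (27 months) males and 5 young (15 weeks) and 5 old (26.5 months) females. Marrow cells of each mouse were first marked with a hashtag antibody, the young and old mice of a sex were then pooled, and Ly6G- CD11b+ CD115+ Ly6C-high cells were sorted from the pool for scRNAseq. Each sex was therefore 1 library, and sex cannot be told apart from the library, so levels were not compared between males and females.

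Oxidative phosphorylation takes place in the inner mitochondrial membrane. Complexes I and II pass electrons from NADH and succinate to coenzyme Q, complex III passes them to cytochrome c and complex IV passes them to oxygen, and the proton gradient built by complexes I, III and IV drives ATP synthesis by complex V. Complex II is made of nuclear gene products alone, whereas the others combine nuclear subunits with a few subunits translated inside the mitochondrion from mitochondrial DNA. Many nuclear promoters of this system are known to carry sites for the factors NRF1, GABP (which binds ETS motifs) and YY1.

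The 84 nuclear subunit genes comprised 36 of complex I, 4 of complex II, 8 of complex III, 20 of complex IV (8 of these being tissue paralogs, that is, isoforms best known from other tissues) and 16 of complex V, and the other 12 nuclear genes encode assembly factors. Of the 96 nuclear genes, 80 were matched to a RefSeq promoter window (GRCm38.p6, 250 bases before to 50 after the transcription start). On both strands, GCGCATGC (NRF1; overlapping matches on both strands spell GCGCATGCGC) was in the windows of 15% of the matched genes, CCGGAAGT (ETS) in 6.25% and AAGATGGC (YY1) in 13.8%, against 3.93%, 5.69% and 3.57% of 17491 protein-coding genes, as a description of these letters and not of binding. The NRF1 letters were in 10 of 61 matched members that were higher in the neutrophil-like cells of the females described below (16.4%) and in 2 of 6 that were lower (33.3%), so the choice of genes shown here does not stand for these sets. The 250 bases before the start are shown for 4 genes on the minus strand that return in the comparisons below: Atp5g2 (chr15:102671048-102671297) and Atp5k (chr5:108434400-108434649), subunit genes of complex V that were higher in cells with neutrophil-like markers, and Uqcrh (chr4:116075071-116075320) and Cox7a2l (chr17:83514334-83514583), which were lower there. Capitals mark matches to the motifs above.
Atp5g2: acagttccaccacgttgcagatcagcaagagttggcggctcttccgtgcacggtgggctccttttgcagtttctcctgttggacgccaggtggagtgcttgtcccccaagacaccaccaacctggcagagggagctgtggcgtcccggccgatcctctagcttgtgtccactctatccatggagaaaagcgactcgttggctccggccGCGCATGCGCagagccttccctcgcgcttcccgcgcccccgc
Atp5k: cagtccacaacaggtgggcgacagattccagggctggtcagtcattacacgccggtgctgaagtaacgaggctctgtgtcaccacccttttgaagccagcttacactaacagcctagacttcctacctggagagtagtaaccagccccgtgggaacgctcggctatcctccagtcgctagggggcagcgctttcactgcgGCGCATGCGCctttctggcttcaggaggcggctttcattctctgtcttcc
Uqcrh: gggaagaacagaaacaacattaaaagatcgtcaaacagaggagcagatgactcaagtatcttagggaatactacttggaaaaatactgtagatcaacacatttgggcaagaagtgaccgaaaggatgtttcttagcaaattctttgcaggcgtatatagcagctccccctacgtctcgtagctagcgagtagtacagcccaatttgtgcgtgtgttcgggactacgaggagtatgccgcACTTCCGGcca
Cox7a2l: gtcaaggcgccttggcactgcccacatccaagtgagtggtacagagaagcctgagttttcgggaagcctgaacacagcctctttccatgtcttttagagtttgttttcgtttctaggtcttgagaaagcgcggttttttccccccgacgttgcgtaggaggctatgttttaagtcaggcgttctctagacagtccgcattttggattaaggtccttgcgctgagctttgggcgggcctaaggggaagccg
The NRF1 letters began 42 bases before the start of Atp5g2 and 50 before that of Atp5k, the ETS letters of Uqcrh began 11 bases before its start on the other strand, and no motif was found in the window of Cox7a2l.

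After filtering, the female pool held 6513 cells (239 to 1592 per mouse) and the male pool 1227 cells (49 to 206 per mouse), with 2720012 to 18186954 and 330586 to 1108320 unique molecular identifiers (UMIs, counts of distinct captured RNA molecules) per mouse. The summed level of 8 classical monocyte markers was 25795 to 32823 CPM (UMI counts of a gene relative to the library's total, in parts per 1e6, scaled by the TMM method) in old and 29895 to 31931 in young females. In males it was lower in every old mouse, at 15431 to 33357, than in any young mouse, at 34407 to 38172. T or NK cell markers summed to 40.3 to 125 CPM in old males against 14.9 to 56.6 CPM in young males. Neutrophil markers there summed to 38.4 to 126 against 118 to 153 CPM. For old against young females these sums were 46.6 to 108 against 53.2 to 80.0 CPM and 103 to 183 against 138 to 157 CPM. B cell markers summed to 17.6 to 32.1 against 30.4 to 37.7 CPM in females and 12.7 to 23.5 against 9.94 to 30.5 CPM in males. Plasmacytoid dendritic cell markers summed to 198 to 299 against 176 to 209 CPM in females and 117 to 231 against 129 to 180 CPM in males. Basophil markers varied most among the male mice, at 29.5 to 565 CPM in old and 23.2 to 481 CPM in young males. In females they summed to 0.55 to 1.45 CPM in old and 0.623 to 3.19 CPM in young mice. Of the 4 basophil markers, Mcpt8 was detected in 10.1% of male cells and Prss34 in 8.64%, but Cpa3 in 2.12% and Fcer1a in 1.39%. Among the T or NK cell markers, Nkg7 was detected in 11.002% of male cells. Cd3e, Cd3d, Klrb1c and Ccl5 were each found in 0.0815% to 0.326% of them. Whether the male cells with Nkg7 were T or NK cells was not tested. The part of any such other cells in the age differences was not tested. Of the 5 neutrophil markers, Mmp8 was detected in 51.2% of female and 29.7% of male cells and Csf3r in 47.6% and 16.8%, whereas Ly6g, Cxcr2 and Retnlg were each found in 0.0815% to 0.733% of cells. Of the plasmacytoid dendritic cell markers, Bst2 was detected in 81.7% of female cells and each other marker in at most 0.322%. Among the B cell markers, Cd79b was detected in 23.8% of female cells and each other marker in at most 0.338%. Old male 4 had 49 cells, of which 93.9% held a UMI of a proliferation marker, and 58.1% of the cells of old female 1 were high for MHC-II genes, against 7.64% in the lowest old female, so both mice stood apart.

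Of the 109 genes, 105 were detected in each pool, and 80 in females and 82 in males averaged over 100 CPM. CPM here take no account of gene length, since a UMI is counted from an end of the transcript. The 9 members that overlap a gene on the same strand (mt-Atp6 with mt-Atp8 and mt-Co3, mt-Nd4 with mt-Nd4l, Cox4i1 with Gm20388, Ndufa13 with Yjefn3, Ndufb2 with Gm42420, Ndufb8 with Gm20538) may share reads. So may the 5 with an annotated pseudogene that carries their own symbol with the suffix -ps (Uqcrh, Atp5l, Atp5k, Atp5c1 and Ndufab1). Pseudogenes under other names were not searched for, so other members may have them too. Mitochondrial genes took 3.12% to 3.47% of UMIs in the females and 2.61% to 3.14% in the males, and nuclear subunit genes 2.52% to 2.68% and 3.52% to 3.96%. Cells with over 5% mitochondrial UMIs were left out, which numbered 534 of the female barcodes and 0 of the male, where the highest value was 4.98% and the table may have been filtered before deposit. The filter limits how high the mitochondrial share of a mouse can be. In females, mt-Co3 and mt-Co1, core subunits of complex IV, were the most abundant members at 8468 and 5855 CPM on average over the 10 mice, and Cox4i1, the regulatory subunit 4 of complex IV, was the most abundant nuclear member at 1403 CPM. In males, mt-Atp6 (7531 CPM), mt-Co3 (5936 CPM) and Cox4i1 (1693 CPM) were at the top of their genomes. The lowest mitochondrial gene in both pools was mt-Nd6, the only protein gene of the light strand, at 3.68 CPM in females and 4.47 CPM in males. It overlaps mt-Nd5 on the other strand, and the counting was not stated to use strand.

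The tissue paralogs of complex IV were rare or not detected. Cox4i2, a form best known from lung, gave 144 UMIs in females and 21 in males, which is 0.129% and 0.182% of its UMIs together with those of Cox4i1. Cox6b2, the testis form of Cox6b1, stood out at 1883 and 398 UMIs, or 4.69% and 5.51% of the pair, and was detected in all 20 mice. The muscle forms Cox6a2 (52 and 7 UMIs) and Cox7a1 (58 and 28 UMIs) were each below 1% of their pair. Cox7b2, Cox8b, Cox8c and Ndufa4l2 had 0 UMIs in both pools, where a count of 0 allows at most 0.0113% of the pair in females and 0.104% in males for Cox7b2, the widest of these limits in each pool, for counting error only.

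Age was compared first within females. Adjusted p below are Benjamini-Hochberg values over all genes tested by the quasi-likelihood test of edgeR, with a threshold of 0.05, and log2 values are old over young. Of 103 members tested, 4 passed the threshold (3.88%), 2 higher and 2 lower in old females, against 3.53% of all 10050 genes (2.07% higher and 1.46% lower), so the share of members called was near the background. The 4 genes were Cox5b, Atp5j, mt-Nd5 and Cox6b2.

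Cox5b (chr1:36691449-36693681, plus strand), a nuclear subunit of complex IV, measured 668, 627, 633, 617 and 638 CPM in the old females and 583, 579, 587, 589 and 572 CPM in the young. Every old mouse was above every young mouse. The means were 637 ± 19.4 and 582 ± 6.64 CPM (SD, n = 5 each), and the gene rose by a log2 change of 0.13 (SE 0.03, edgeR adjusted p = 0.0369). Atp5j (chr16:84827866-84835625, minus strand), coupling factor 6 in the stalk of complex V, measured 555, 526, 515, 519.8 and 538 CPM in old and 485, 482, 482, 486 and 490.2 CPM in young females. These groups did not overlap either, and the gene rose by 0.13 on the log2 scale (SE 0.03, edgeR adjusted p = 0.0433). Atp5j overlaps Gabpa on the other strand.

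mt-Nd5 (chrM:11742-13565, plus strand), a proton-pumping subunit of complex I, measured 141, 135, 146, 142 and 130.2 CPM in old and 158, 156, 161, 160.1 and 148 CPM in young females. Every old mouse was below every young mouse, and the gene fell by 0.17 on the log2 scale (SE 0.04, edgeR adjusted p = 0.0377). Cox6b2 (chr7:4751792-4753094, minus strand) measured 16.1, 19.1, 22.8, 22.2 and 18.8 CPM in old and 27.3, 27.3, 22.6, 26.2 and 28.1 CPM in young females. The highest old mouse lay just above the lowest young mouse, and the gene fell by 0.40 on the log2 scale (SE 0.09, edgeR adjusted p = 0.0213).

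**Figure D1:**
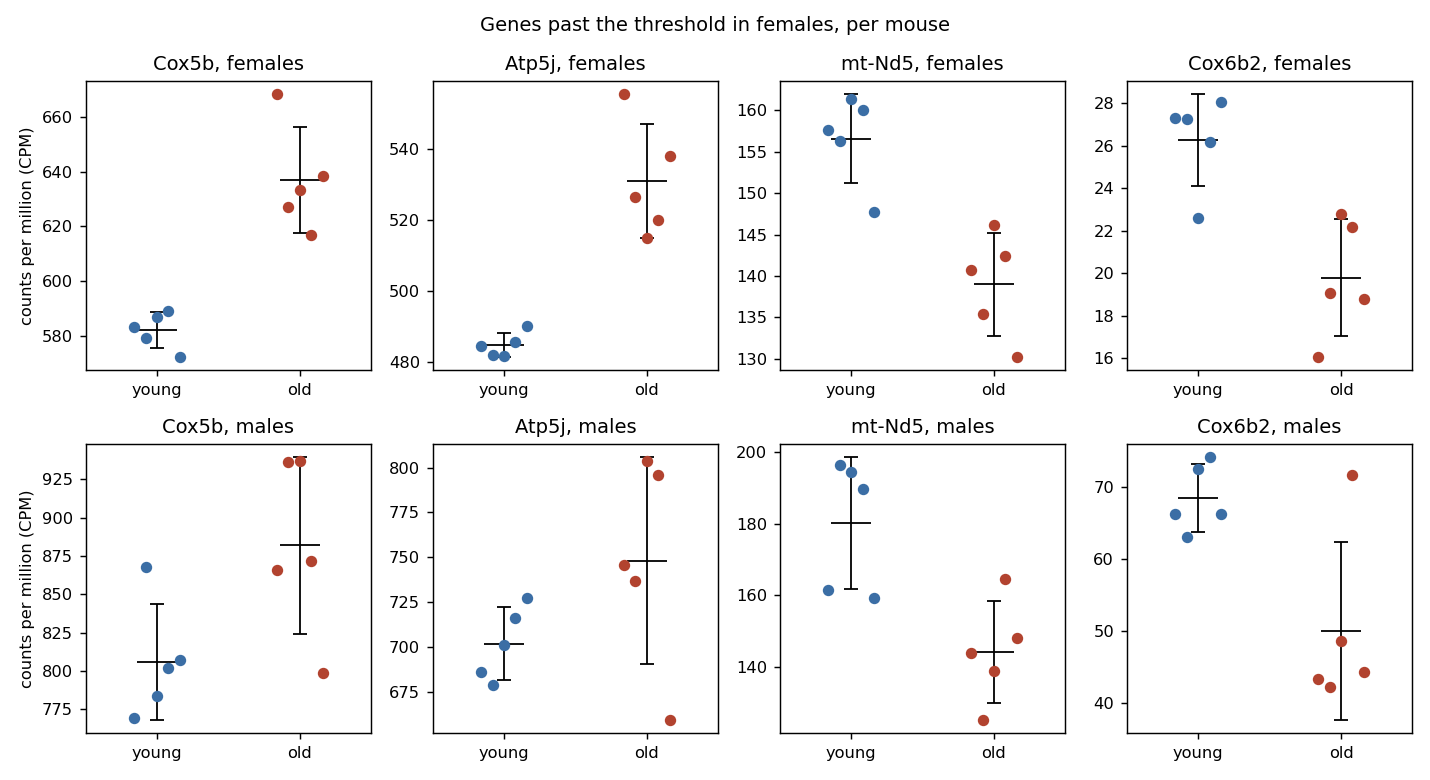
Level (CPM, y axis, not starting at 0) of Cox5b, Atp5j, mt-Nd5 and Cox6b2 in each young and old mouse, with mean and SD (n = 5); females above, males below. In females the ages did not overlap for the first 3 genes, whereas in males they overlapped for all 4 genes and none passed the threshold.

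These calls lay close to the threshold. Over 19 alternative settings and left-out mice, Cox6b2 passed in 13, Cox5b in 8 and Atp5j in 7, and mt-Nd5 passed in 8 of 18, each with its direction kept. The adjusted p ranged from 0.00921 to 0.388, 0.00437 to 0.124, 0.00749 to 0.35 and 0.0258 to 0.844 in that order. The setting with HTODemux singlets is the main fit itself in females, so 1 pass of each gene was fixed by construction. Without young female 1, 2 or 4 no member passed, while 2.3%, 1.94% and 2.2% of all genes did, and without old female 4 the number was 10 of 103, with 5.45% of all genes.

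Other nuclear subunits of complex IV that separated the ages in females differed by small amounts. Cox7a2 (+0.13), Cox6a1 (+0.13) and Cox7b (+0.12), all small subunits of complex IV, had every old mouse above every young mouse, with edgeR adjusted p = 0.0599, 0.0925 and 0.0948. Cox5a, a neighbour of Cox5b in complex IV, measured 753, 746, 712, 666 and 819 CPM in old and 661, 647, 669, 660.5 and 651 CPM in young females. Old female 4 lay among the young mice, the log2 difference was 0.17 (SE 0.05, edgeR adjusted p = 0.0664) and the gene passed in 6 of 19 alternatives. In the other direction, Cox7a2l, a relative of Cox7a2 known from supercomplexes of complexes III and IV, and of which C57BL/6 mice are known to carry a short form, measured 363, 307, 356, 366 and 310 CPM in old and 373, 388, 379, 372 and 382 CPM in young females. Every old mouse was below every young mouse, with a log2 difference of -0.16 (SE 0.05, edgeR adjusted p = 0.11).

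In all, 12 members had every old female above every young female and 2 had every old female below, or 12 and 2 of 103, while over all genes tested the shares were 3.2% and 2.65%. At an unadjusted p under 0.05, 18 members were higher and 7 lower, against 8.33% and 8.29% of all genes. The 12 were spread over the complexes: Ndufb8 and Ndufc1 of complex I, Sdhb and Sdhc of complex II, Uqcrq of complex III, Cox5b, Cox6a1, Cox7a2 and Cox7b of complex IV, and Atp5e, Atp5f1 and Atp5j of complex V. Their names were read after the values were seen. Of the 78 nuclear subunits tested, 64 had a positive log2 value and the median was 0.06, compared with 49.3% positive and a median of -0.0023 for all genes. The counts of positive values were 33 of 36 for complex I, 3 of 4 for complex II, 5 of 8 for complex III, 9 of 14 for complex IV and 14 of 16 for complex V. Assembly factors (5 of 12 positive) and mitochondrial genes (6 of 13 positive, median -0.01) did not show this excess of positive values. The 2 most abundant nuclear subunits of each complex were mixed on leaving out a mouse in turn. Log2 values were -0.0985 to -0.0548 for Uqcrh, -0.0262 to -0.0088 for Cox4i1, -0.0117 to 0.0136 for Cox8a and -0.003 to 0.015 for Atp5l. They were 0.0114 to 0.0334 for Atp5h, 0.0279 to 0.0492 for Ndufa13 and 0.0658 to 0.0902 for Ndufb7. For Uqcrb, Sdhb and Sdhd they were 0.0761 to 0.1323, 0.0843 to 0.1119 and 0.0743 to 0.1285.

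In males, 0 of 96 members and 0 of 5656 genes (0%) passed the threshold, with 618 genes at an unadjusted p under 0.05. DESeq2 called 22 genes and 0 members, and without old male 4 edgeR called 24 genes and 0 members. At the unadjusted level, 12 members were higher and 5 lower in old males, while 5.62% and 5.3% of all genes were. Cox7b (X chromosome, subunit 7b of complex IV) had the lowest p, at 451, 457, 471, 500.1 and 411 CPM in old and 412, 402, 379, 379 and 379 CPM in young males. Only the lowest old mouse overlapped the young mice, and the log2 difference was 0.25 (SE 0.08, edgeR adjusted p = 0.243). Uqcr11, a small subunit of complex III, measured 613, 593, 705, 661 and 612 CPM in old and 570.0, 554, 536, 529.5 and 552 CPM in young males. Here the ages did not overlap, and the log2 difference was 0.23 (SE 0.08, edgeR adjusted p = 0.254). The other 2 genes with every old male above every young male were Atp5g1 and Ndufb8, and mt-Nd4 had every old male below, against 0.919% and 1.24% of all genes.

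The members with the lowest p among those lower in old males included some of the same names as in females, without passing. Cox6b2 measured 43.4, 42.2, 48.6, 71.8 and 44.4 CPM in old and 66.3, 63.1, 72.6, 74.2 and 66.3 CPM in young males, a log2 difference of -0.46 (SE 0.16, edgeR adjusted p = 0.3). Old male 4 lay among the young mice and the other 4 old mice below them. For Cox7a2l the difference was -0.21 (SE 0.08, edgeR adjusted p = 0.333), for Uqcrh, the hinge protein of complex III, -0.17 (SE 0.07, edgeR adjusted p = 0.427) and for mt-Nd5 -0.32 (SE 0.10, edgeR adjusted p = 0.261).

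Of the 76 nuclear subunits tested in males, 64 had a positive log2 value (median 0.09), as did 51.4% of all genes (median 0.01). Mitochondrial genes were positive in 2 of 12, and assembly factors in 3 of 8. The most abundant nuclear subunits were mixed on leaving out a male in turn. Log2 values were -0.2016 to -0.124 for Uqcrh, -0.0949 to -0.0374 for Ndufa13, -0.0555 to -0.0278 for Atp5h and -0.0525 to -0.0211 for Cox4i1. They were -0.0368 to 0.0481 for Ndufb7, -0.0046 to 0.0278 for Atp5l and -0.0037 to 0.0876 for Sdhd. For Cox8a, Sdhb and Uqcrb they were 0.0484 to 0.101, 0.0606 to 0.1561 and 0.0641 to 0.1496. Across the 96 members tested in both sexes, 74 had the same sign in males and females, with Pearson's r = 0.63 and Spearman's rho = 0.57 across genes, which are not independent, while r was 0.44 over 5650 genes. In a model of all 20 mice, 0 of 100 members passed for a difference in age effect between the sexes (2 of 8851 genes did, 0.0226%). This does not show that the age effects were equal, and a difference could not be told from one between the libraries. The lowest p was that of mt-Nd4, whose log2 change was 0.21 higher in females (SE 0.07, edgeR adjusted p = 0.727).

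**Figure D2:**
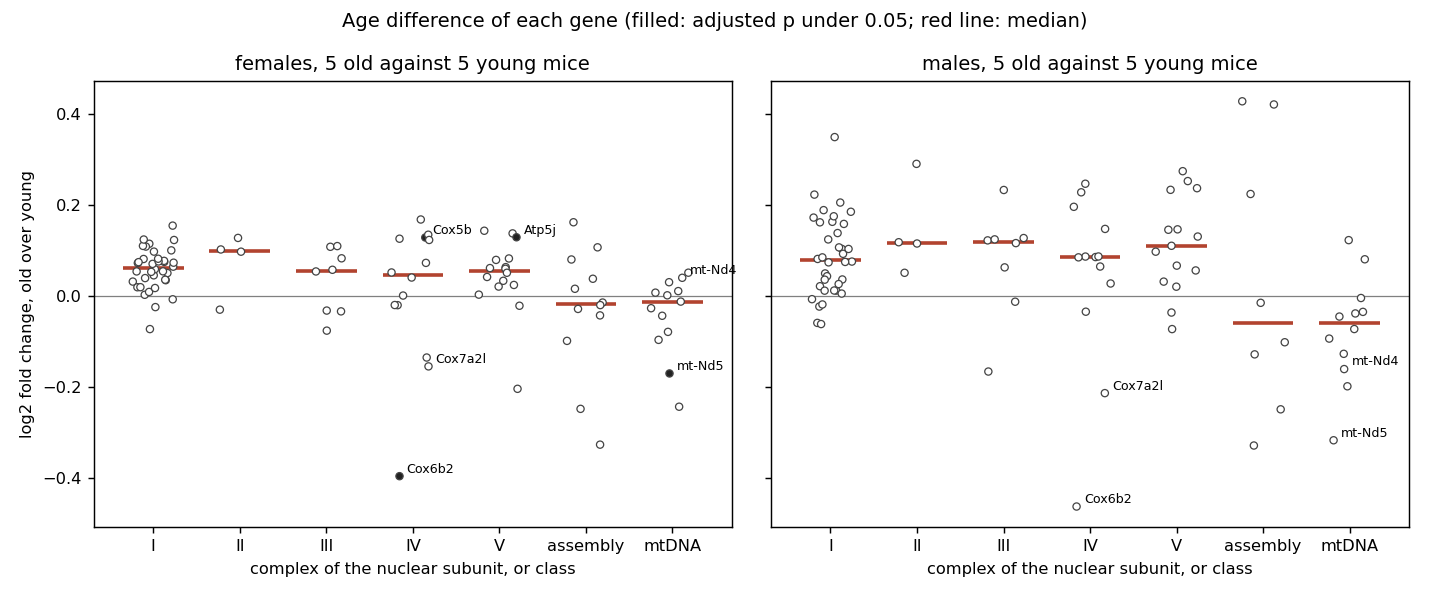
Log2 fold change of old over young mice (y axis) for every member tested, by complex of the nuclear subunits, assembly factors and mitochondrial genes (x axis); filled points passed the adjusted threshold and red lines are medians. The median of every nuclear complex lay above 0 in both sexes, and that of the mitochondrial genes below 0.

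Summed over genes, the nuclear subunits took 2.63%, 2.63%, 2.59%, 2.55% and 2.68% of UMIs in old and 2.57%, 2.54%, 2.54%, 2.52% and 2.52% in young females. The lowest old female lay among the young, and the mean was 3.02% higher in old mice in relative terms. In males the shares were 3.65%, 3.67%, 3.83%, 3.96% and 3.64% in old and 3.54%, 3.53%, 3.52%, 3.53% and 3.60% in young mice, so the ages did not overlap, and the mean was 5.78% higher in relative terms. In males the ages also did not overlap for complexes I, II and V, whereas they overlapped for complexes III and IV. Without old male 4 the nuclear shares of the old males still lay above those of the young, at 3.64% to 3.83%. In cells without a proliferation UMI the ages overlapped, at 3.24% to 4.16% in old and 3.16% to 3.26% in young males. Old male 4 had 3 such cells. No test was made of these sums, because the genes were chosen as a set. Median UMIs per cell were higher in every old mouse than in any young mouse of its sex. They were 9719 to 13262.5 against 8281 to 8990 in females and 4489.5 to 8844 against 3805.5 to 4455.5 in males. With each cell thinned to 2000 UMIs, the nuclear shares were 3.51% to 3.80% in old and 3.38% to 3.43% in young males. In females they were 2.44% to 2.59% and 2.42% to 2.49%. The part of depth in the age differences was not tested.

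Mitochondrial genes did not follow. Their share was 3.47%, 3.36%, 3.22%, 3.27% and 3.12% in old and 3.39%, 3.27%, 3.40%, 3.39% and 3.38% in young females, and 2.92%, 2.61%, 2.88%, 3.05% and 2.97% in old and 3.03%, 2.97%, 2.92%, 3.14% and 2.98% in young males. The ages overlapped in both sexes. Without the 5% maximum, the female shares were 3.17% to 3.60% in old and 3.52% to 3.61% in young mice, still with overlap. Their medians were 3.42% and 3.54%. Among singlets, the maximum left out 1.99% to 6.58% of the cells of an old female and 4.78% to 7.59% in the young. The ratio of mitochondrial to nuclear subunit UMIs was 0.713 to 0.817 in old and 0.827 to 0.89 in young males, without overlap, and 1.17 to 1.32 and 1.29 to 1.34 in females, with overlap.

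**Figure D3:**
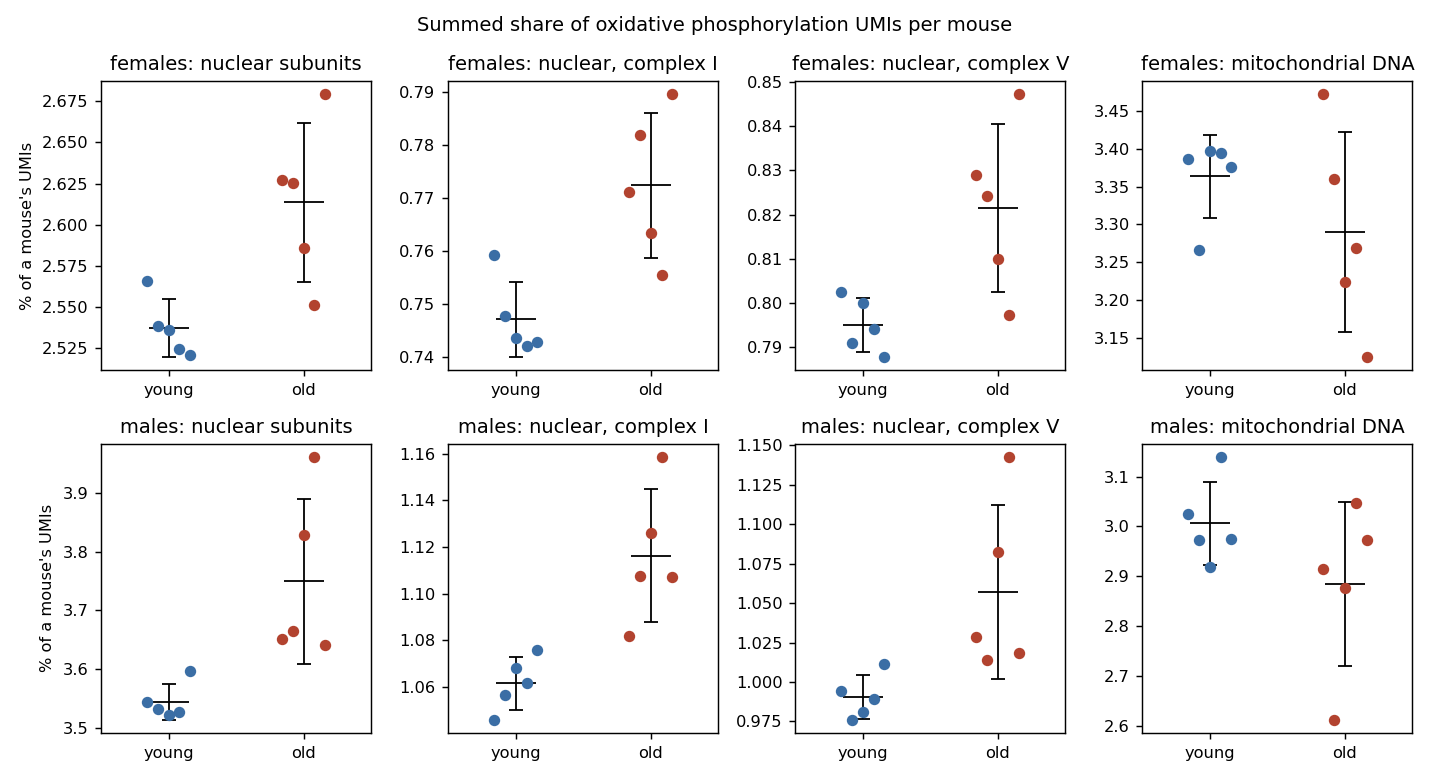
Percent of a mouse's UMIs (y axis, not starting at 0) on nuclear subunits, on those of complexes I and V and on mitochondrial genes, per mouse with mean and SD (n = 5); females above, males below. Old males lay above young males for the nuclear sums, while the ages overlapped in females and for mitochondrial genes.

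A sum over a mouse's cells cannot tell a change within cells from a change in the mix of cells, so the members were also compared between cells of the same mouse. Each cell was thinned to 2000 UMIs and called high for a marker list with at least 2 UMIs of it and none with 0, and the full UMIs of each class were then summed per mouse and compared with mouse as a term. The lists marked cell cycle (such as Mki67 and Top2a), neutrophil-like monocytes (Elane, Mpo, Prtn3, Ctsg, Fcnb, Camp, Ngp and Ltf) and MHC-II (H2-Aa, H2-Ab1, H2-Eb1 and Cd209a). These classes are ranges of a count and not cell types. The authors describe neutrophil-like monocytes as a product of granulocyte-monocyte progenitors. They count MHC-II genes among the signature genes of monocytes that derive from monocyte-dendritic cell progenitors. A count of either list does not show the origin of a cell. Neutrophil-like high cells were 39.7% to 56.8% of the cells of a female, whereas the authors' neutrophil-like monocytes formed a single cluster.

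Between neutrophil-like high cells (2959 in females, 435 in males) and cells with none (1898 and 421), oxidative phosphorylation genes were mostly higher in the high cells. In females, 80 of 103 members rose (77.7%) and 7 fell, compared with 32.9% and 34.7% of all genes (67.6% in either direction). In males, 44 of 95 rose (46.3%) and 3 fell, compared with 20% and 20.2% (40.2% in either direction). The median log2 value of the members was 0.25 in females and 0.20 in males, and that of all genes -0.02 and -0.01. Members higher in the high class came from every complex in females, with 30 of 36 subunits of complex I, 4 of 4 of complex II, 7 of 8 of complex III, 11 of 14 of complex IV and 12 of 16 of complex V.

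Atp5g1, which encodes the c subunit of the complex V rotor, had 498, 539 and 666 CPM as its lowest, median and highest level in the high class of the 10 females, and 277, 301 and 373 CPM in the other. The classes did not overlap, the log2 change was 0.78 (SE 0.03, edgeR adjusted p = 1.42e-18), and in males it was 0.63 (SE 0.08, edgeR adjusted p = 8.02e-09). Its sister gene Atp5g2 rose by 0.49 in females and 0.34 in males on the log2 scale. Ndufab1, the mitochondrial acyl carrier protein held in complex I, rose by 0.82 and 0.61, and the complex I subunit gene Ndufa12 by 0.80 and 0.64. Atp5k, subunit e of complex V, rose by 0.42 and 0.37.

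Cox5a of complex IV rose by 0.64 in females and 0.31 in males, and Uqcrb of complex III by 0.48 and 0.40. Among the mitochondrial genes, mt-Cytb, the cytochrome b of complex III, rose by 0.46 and 0.30, while mt-Co1 fell by 0.13 in females (edgeR adjusted p = 6.14e-07) and measured -0.08 in males (edgeR adjusted p = 0.102). With classes set on unthinned counts, mt-Co1 measured 0.06 in females. Ndufaf2, an assembly factor of complex I named here after its values were seen, rose by 1.29 in females and 0.81 in males.

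Most Cox4i2 UMIs came from the neutrophil-like high class, with 135 of its UMIs there and 5 in cells with none in females, or 2.90 and 0.291 CPM over the pooled cells without TMM scaling. In males the counts were 21 and 0. Cox4i2 passed the count filter in females only through the class where it was high, so its place among the 80 members that rose is a description, and no fold or test is given for it. Cox6b2 did not pass, at 22.8 and 24.4 CPM on the same scale in females (edgeR adjusted p = 0.638).

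A small number of members fell. Cox7a2l measured 280, 318 and 327 CPM as the lowest, median and highest value in the high class of the females and 353, 454 and 496 CPM in the other. The classes did not overlap, and the gene fell by 0.54 on the log2 scale (SE 0.03, edgeR adjusted p = 7.32e-15). In males it fell by 0.55 (SE 0.10, edgeR adjusted p = 3.54e-05), with a lower level in the high class in 8 of 10 mice. Uqcrh fell by 0.23 in females (edgeR adjusted p = 2.29e-08) and by 0.24 in males (edgeR adjusted p = 0.00474), and Ndufa6, an accessory subunit of complex I, by 0.22 and 0.26. These 3 were the only members that fell in both sexes, 43 rose in both and 0 went opposite ways, and Ndufa6 was named after its values were seen. Over 8 alternatives in females, Cox7a2l passed in 8, Uqcrh in 7 (edgeR adjusted p up to 0.255, with classes set on unthinned counts) and Ndufa6 in 6 (edgeR adjusted p up to 0.304).

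**Figure D4:**
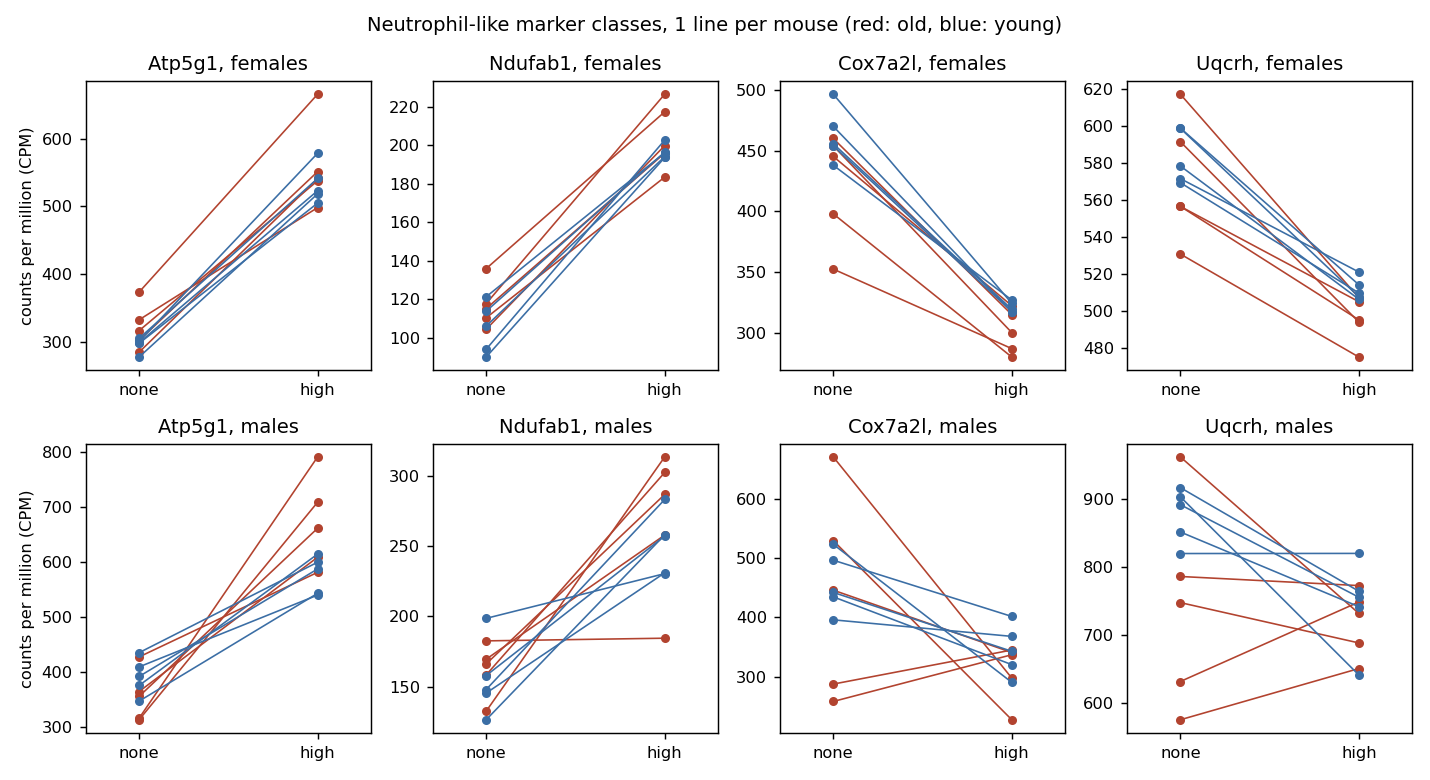
Level (CPM, y axis, not starting at 0) of Atp5g1, Ndufab1, Cox7a2l and Uqcrh in cells with none and with at least 2 UMIs of the neutrophil-like list, with a line for each mouse; females above, males below. Atp5g1 and Ndufab1 were higher in the high class in 10 of 10 mice of each sex, and Cox7a2l and Uqcrh were lower in 10 of 10 females.

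Nuclear subunits took 2.67% to 2.80% of UMIs in neutrophil-like high cells and 2.25% to 2.40% in cells with none over the females, and 3.74% to 4.10% and 3.26% to 3.45% over the males, without overlap. In males the high class held 35.2% to 66.0% of the cells of an old mouse and 31.1% to 36.8% of those of a young mouse, and among females 39.7% to 46.4% at the young and 41.3% to 56.8% at the old age. In the males' cells with none of these markers, nuclear subunits took 3.26% to 3.45% in old and 3.29% to 3.37% in young mice, a difference of 0.0143 percentage points instead of 0.205 over all cells. Such cells numbered 8 to 72 per old male and 40 to 66 per young male, with 8, 18 and 20 in old males 4, 3 and 5. In the high class the values were 3.91% to 4.10% in old and 3.74% to 3.89% in young males, without overlap and with a difference of 0.184 points. In females the corresponding ranges were 2.27% to 2.40% in old and 2.25% to 2.33% in young mice for cells with none, and 2.70% to 2.80% and 2.67% to 2.72% for high cells.

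Between cell-cycle high cells (2642 in females, 356 in males) and cells with none (2824 and 652), 71 of 102 members rose (69.6%) and 11 fell (10.8%) in females. Of all genes, 33.8% rose and 37.5% fell there (71.3% in either direction). In males, 29 of 95 members rose (30.5%) and 5 fell (5.26%), compared with 20.1% and 20% of all genes (40.1% in either direction). Atp5g2 had 823, 885 and 915 CPM as the lowest, median and highest level in the high class of the females and 515, 593 and 605 CPM in the other, a log2 change of 0.56 (SE 0.03, edgeR adjusted p = 1.43e-18). It rose by 0.49 in males (edgeR adjusted p = 0.000104). The genes Ndufab1 (0.65 and 0.50), Cox5a (0.57 and 0.37) and Atp5o (0.56 and 0.45), the last encoding the stalk protein OSCP of complex V, also rose in both sexes.

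Cox7a2l was the member with the lowest p in this contrast, at 265, 297 and 314 CPM in cycling and 384, 475 and 501 CPM in the other cells of the females, and it fell by 0.68 on the log2 scale (SE 0.03, edgeR adjusted p = 1.02e-19). In males it fell by 0.69 (SE 0.10, edgeR adjusted p = 1.12e-05). The other members lower in both sexes were Uqcrh, Ndufa6, Ndufa7 and Ndufa13, of which the last 3 are accessory subunits of complex I, and Ndufa7 was named after its values were seen. Cox6b2 rose by 0.48 in females (edgeR adjusted p = 7.54e-07), whereas it fell with age there. Its value in males was 0.46 (edgeR adjusted p = 0.097). The cell-cycle high class held 24.1% to 68.1% of the cells of an old male, with the highest share in old male 4, and 23.2% to 30.8% of those of a young male. In females the shares were 35.4% to 47.9% at the old and 38.9% to 41.8% at the young age.

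The cell-cycle and neutrophil-like classes overlapped, since 64.9% of the cell-cycle high cells of the females were also neutrophil-like high, against 28.2% of those with 0 cell-cycle UMIs. High cells held more UMIs, with medians of 16226.5 and 7736.5 for the cell-cycle and 15238 and 8023 for the neutrophil-like classes in females. In cells with 0 UMIs of the other lists, a comparison chosen after the data were seen, 50 of 97 members rose and 3 fell in the female neutrophil-like contrast. Of all genes, 22.1% rose and 19% fell there (41.1% in either direction), and the medians were 8526 and 7390 UMIs per cell. For the cell cycle, 35 of 97 members rose and 13 fell, compared with 23.1% and 23.6% of all genes (46.7% in either direction). In males 14 of 83 members rose and 1 fell for neutrophil-like markers in the 8 mice with enough cells, compared with 13% and 10.8% of all genes (23.8% in either direction). For the cell cycle in 7 males, 9 of 83 members rose and 4 fell, compared with 15% and 13.5% of all genes (28.5% in either direction). Cox7a2l was lower there in both contrasts and both sexes, past the threshold, with log2 changes from -0.79 to -0.34, whereas mt-Cytb measured -0.03 (edgeR adjusted p = 0.572) in the cell-cycle contrast of the females. The part of depth in these differences was not tested.

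MHC-II high cells (680 in females, 161 in males) showed the opposite pattern against cells with none. In females, 66 of 102 members fell (64.7%) and 5 rose, compared with 20.6% and 19.9% of all genes (40.5% in either direction), and in 9 males 36 of 92 fell (39.1%) and 2 rose, compared with 12.1% and 11.2% (23.3% in either direction). Old male 4 was left out for having fewer than 5 such cells. Median UMIs per cell were 8722 and 10001 in females and 4107 and 4910 in males. Atp5g1 measured 243, 282 and 388 CPM as the lowest, median and highest level in MHC-II high cells and 426, 465 and 583 CPM in the others of the females. It fell by 0.65 on the log2 scale (SE 0.06, edgeR adjusted p = 1.47e-11) and by 0.56 in males (edgeR adjusted p = 0.000673).

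In males, Atp5j fell by 0.63, Atp5b, the catalytic beta subunit of complex V, by 0.58 and Ndufa4, a subunit now assigned to complex IV, by 0.54 on the log2 scale, and Atp5k by 0.57. Cox7a2l rose, by 0.51 in females (SE 0.06, edgeR adjusted p = 3.24e-09) and 0.59 in males (SE 0.12, edgeR adjusted p = 0.00021), and with Ndufa6 it was the only member higher in both sexes. Nuclear subunits took 2.05% to 2.47% of UMIs in MHC-II high cells and 2.54% to 2.85% in the others over the females, and 2.89% to 3.47% and 3.59% to 3.91% over the males.

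This contrast moved with the other lists. Of the MHC-II high cells of the females, 26.5% were also neutrophil-like high and 20.9% cell-cycle high, against 48.2% and 43.4% of the cells with 0 MHC-II UMIs. Where the other lists were at 0, leaving 200 MHC-II high cells in females and 71 in males, 1 of 91 members fell and 1 rose in females. Of all genes, 2.44% fell and 3.76% rose there (6.2% in either direction). Only 3 males had enough cells, old 1, old 2 and young 3, with 17, 19 and 7 of the MHC-II high cells. In these 3 males, 0 of 82 members passed by edgeR (3.27% of all genes), with 7 at an unadjusted p under 0.05. There Atp5g1 measured 0.00 in females (edgeR adjusted p = 0.994), against a range of -0.71 to 0.05 over its 8 alternatives, and 0.14 in males (edgeR adjusted p = 0.894). Cox7a2l did not pass there either, at 0.14 in females (edgeR adjusted p = 0.318) and 0.18 in males (edgeR adjusted p = 0.787). With classes set on unthinned counts, 5 of 103 members passed in females, fewer than the 9.43% of all genes. The share of MHC-II high cells was 7.64% to 58.1% in old and 5.04% to 5.59% in young females, and 6.38% to 37.0% and 8.06% to 10.9% in males.

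**Figure D5:**
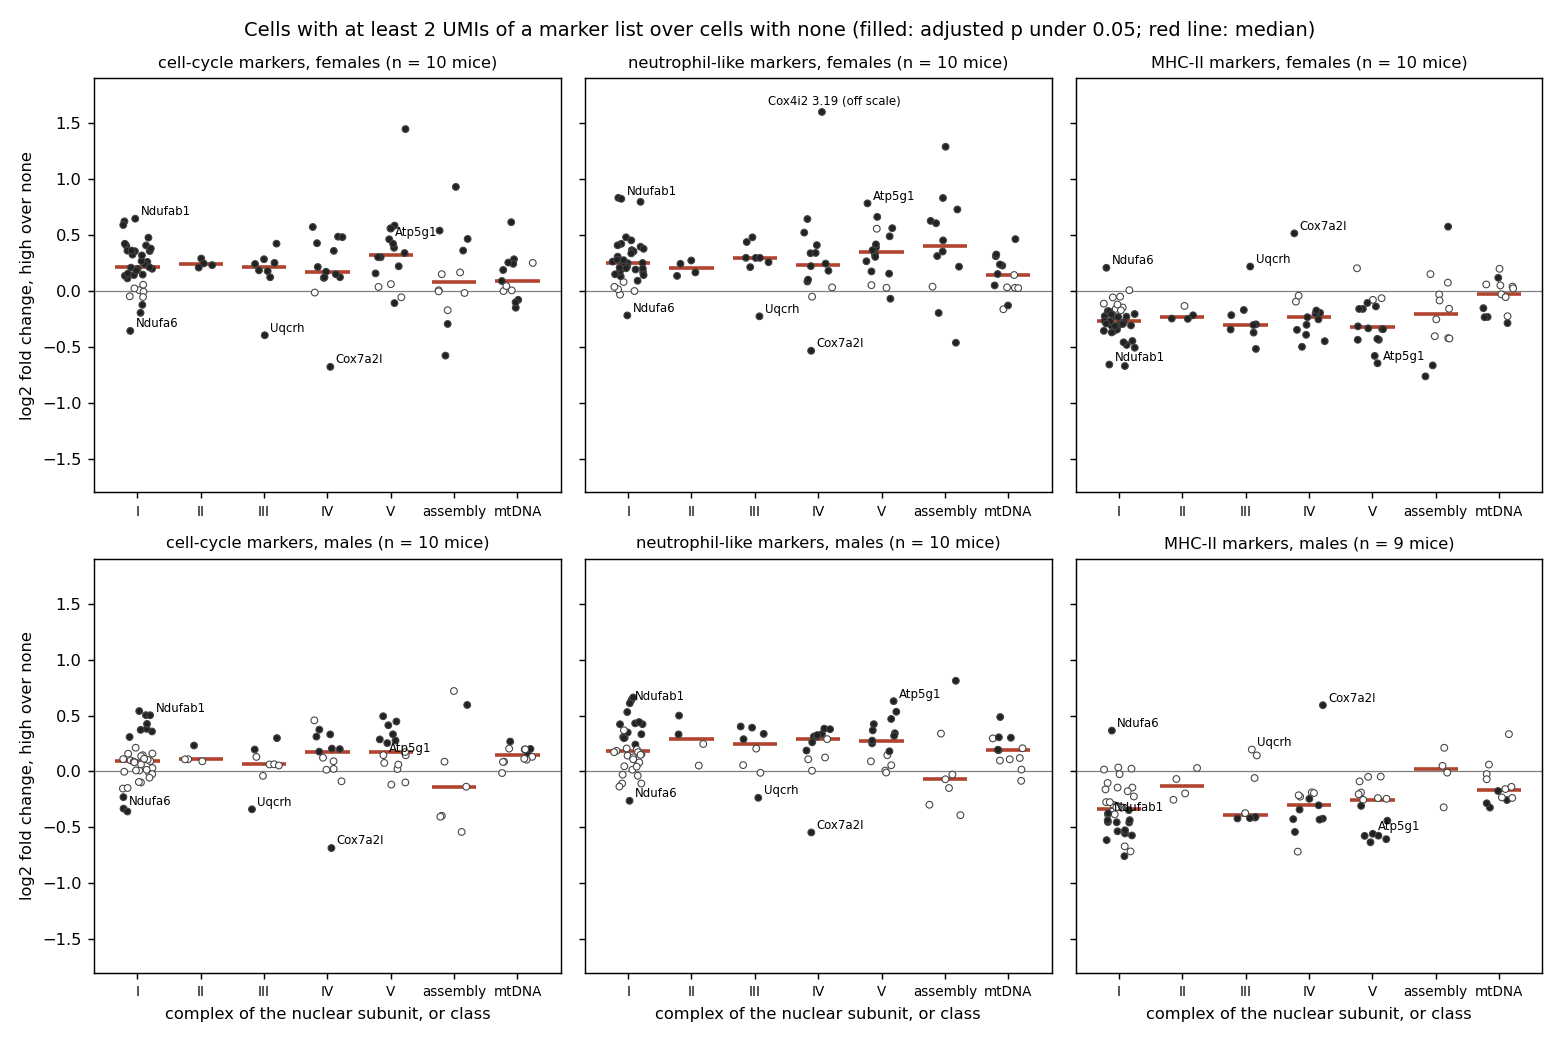
Log2 fold change of high over none cells (y axis) for each member tested, by complex of the nuclear subunits, assembly factors and mitochondrial genes (x axis), for 3 marker lists in females (above) and males (below); filled points passed the adjusted threshold and red lines are medians. Most nuclear subunits lay above 0 for cell-cycle and neutrophil-like markers and below 0 for MHC-II markers, with Cox7a2l, Uqcrh and Ndufa6 on the other side. The off-scale point of Cox4i2 for neutrophil-like markers in females is a description only, since it passed the count filter through its high class.

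Genes that serve the same system outside the symbol prefixes were read from lists. Of 77 mitochondrial ribosomal protein genes, which translate the mitochondrial subunits, 76 were tested in females, and 2 rose with age, Mrpl52 (log2 change 0.26) and Mrpl16 (0.25), against 2.07% of all genes higher, while 62 of 76 had a positive value, against 49.3% of all genes. Of 34 assembly and partner genes tested, 1 rose, Coa5 (0.27), an assembly factor of complex IV. Of 13 tricarboxylic acid cycle genes, 15 genes of mitochondrial genome expression and 8 regulators, 0 passed in females. In males 0 passed in any of the 5 lists.

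In the neutrophil-like contrast, 65 of 76 mitochondrial ribosomal genes rose and 1 fell in females, and 28 of 72 rose and 2 fell in males, where 32.9% and 34.7% of all female and 20% and 20.2% of all male genes did. Mrpl12 rose by 0.95 in females and 0.99 in males. Of the 13 tricarboxylic acid cycle genes, 10 rose in females and 6 in males, with Idh3a, a subunit of isocitrate dehydrogenase, at 1.13 and 0.70. Of the assembly and partner genes, 16 of 34 rose and 2 fell in females, and 3 of 16 rose in males, near the share of all genes. Atpif1, the inhibitor of ATP hydrolysis by complex V, rose by 0.86 and 0.79, and Cycs, which encodes cytochrome c, by 0.78 and 0.76. Of the genes of mitochondrial genome expression, 8 of 15 rose in females and 2 of 4 in males, and of the regulators 3 of 8 rose in females, with Myc at 2.02, 1 fell, and 0 of 3 passed in males.

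In the cell-cycle contrast of the females, 56 of 76 mitochondrial ribosomal genes rose and 5 fell, where 33.8% and 37.5% of all genes did. Of 13 tricarboxylic acid cycle genes, 10 rose and 0 fell. Of 34 assembly and partner genes, 12 rose (35.3%) and 4 fell. Of 15 genes of mitochondrial genome expression, 4 rose (26.7%) and 1 fell. The share that rose was near or below that of all genes in both of these lists. Of 8 regulators, 4 rose and 2 fell. With MHC-II markers, 46 of 76 mitochondrial ribosomal genes fell and 1 rose (20.6% and 19.9% of all genes). Of 13 tricarboxylic acid cycle genes, 6 fell and 0 rose. Of 34 assembly and partner genes, 9 fell (26.5%) and 0 rose. Of 15 genes of mitochondrial genome expression, 3 fell (20%), near the share of all genes, and 0 rose. Of 8 regulators, 1 rose. For MHC-II these gene lists were not read with the other marker lists at 0 or with unthinned classes, where few members passed in females. In males the same lists gave 13 higher and 2 lower of 70 mitochondrial ribosomal genes for the cell cycle, against 20.1% and 20% of all genes, and 1 higher and 10 lower of 64 for MHC-II, against 11.2% and 12.1%.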

How the data were processed

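The deposited values were raw UMI counts per gene or hashtag and cell barcode, which the authors made with Cell Ranger from reads aligned with STAR to mm10, without normalization. The file headers name Cell Ranger 3.1.0 (females) and 7.0.0 (males) and the submitters' processing notes 4.0.0, with STAR 2.5.1. Whether counting used strand is not given in the sources used here. Cells with over 200 genes and under 5% mitochondrial UMIs were assigned to a mouse by their leading hashtag. Female cells also had to be singlets of HTODemux (Seurat 5.3.0), which left out 2478 doublets and 942 negatives. A further 134 female singlets were left out because their HTODemux hashtag was not the leading one. The 401 male barcodes called doublets were kept, since their leading hashtag held a median of 95.1% of hashtag counts. The pools shared 0 barcodes. Counts were summed per mouse and tested, two-sided, with edgeR 4.0.16 (TMM, filterByExpr, quasi-likelihood) in R 4.3.3, with DESeq2 1.42.0 as an alternative. The scripts were tested on simulated data, with log2 changes larger than the age differences of the members. Promoter windows came from RefSeq on GRCm38.p6 and gene positions from GENCODE on GRCm38. Intervals and limits on counts cover counting error only.

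The members, lists and tests were chosen with earlier results of these data known. Genes were named from the mitochondrial genes, members past the threshold by age and the 2 highest nuclear subunits of each complex. Further sources were tissue paralogs and their partners and the 3 lowest p in each direction in males. The last source was the 5 lowest adjusted p of each state contrast. Not every gene from these sources was described in full. For Ndufb7, Sdhd, Atp5h and Cox8a only the range of the age difference over left-out mice is given. Genes named for groups that did not overlap, Ndufa6, Ndufa7 and Ndufaf2 were named after their values were seen. At most 3 examples were named for each other list. Of 16 genes listed for mitochondrial genome expression, 15 were in the files.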

Additional observations from a re-analysis of the deposited data

Results flagged for a closer look

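In 84 groups of 5 mice, 4 values lay far from the other 4 of their group by Dixon's test at the 95% level, while chance flags about 1 in 20 groups. In young female 2, mitochondrial genes took 3.27% of UMIs and the mitochondrial subunits of complex IV 1.96%, both the lowest of the young females. Cox7b in young female 3 was 317 CPM, the lowest of the young females. Cox6b2 in old male 4 was 71.8 CPM, the highest of the old males.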

How the results depend on the processing

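In females, 4 members were called by age. The number was 2 without a filter on low counts (2.46% of all genes), 9 with the leading hashtag for every barcode (5.27%), 1 after thinning each cell to 2000 UMIs (2.37%), 2 in cells without a proliferation UMI (3.37%), and 0 to 10 on leaving out a mouse in turn. In males and for the interaction it was 0 on leaving out each mouse. Use of HTODemux singlets in females, and of the leading hashtag for every barcode or no mitochondrial maximum in males, gave the main values by construction. Alternatives in cells with other lists at 0, within neutrophil-like classes, and, for the marker contrasts, with upper-quartile factors, mitochondrial genes left out or a mouse left out were chosen after seeing the data. With other lists at 0, members called in the cell-cycle, neutrophil-like and MHC-II contrasts were 48, 53 and 2 in females and 13, 15 and 0 in males, with fewer cells and genes tested. With unthinned classes, they were 5 for MHC-II in females (9.43% of all genes), and 25 for MHC-II (19.3%) and 57 for the cell cycle (54%) in males, and without a filter 65 for MHC-II in males (9.79%). In the unthinned neutrophil-like contrast of the females, members that fell went from 7 to 1, with 29% of all genes called instead of 67.6%. The class with none held 7 to 56 cells per mouse there, against 66 to 508 in the main contrast. The cause was not tested. The age difference of the nuclear share in males fell from 0.205 to 0.0143 percentage points in cells with none of the neutrophil-like markers (8 cells in old male 4), and was 0.184 in the high class. On leaving out a mouse in turn it was 0.152 to 0.232 in males and 0.0602 to 0.0923 in females, and that of the mitochondrial share -0.162 to -0.0535 and -0.119 to -0.0325. Other counts of members called and shares stayed within 1.5 times or 1 SD of the main value. Without a filter, 95 genes and 0 members were called by age in males.

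Among named genes past the threshold in a marker contrast, the signs that reversed did so without passing it. With other lists at 0 in females, mt-Cytb (-0.0309) and mt-Nd1 (-0.0509) did so for the cell cycle, and Atp5b (0.0067), Atp5g1 (0.0034), Ndufab1 (0.0413), Ndufaf2 (0.3485), mt-Co1 (-0.0377) and mt-Cytb (0.0433) for MHC-II. With unthinned classes in females, mt-Co1 (0.0585) did so for neutrophil-like markers, and Atp5g1 (0.0537), Ndufa6 (-0.0224), Ndufab1 (0.0487), mt-Cytb (0.0047) and mt-Nd1 (0.0028) for MHC-II. In males with other lists at 0, Atp5g1 (0.1403) and Atp5g3 (0.0136) did so for MHC-II. Of named genes that did not pass, the age effect changed sign in at least 1 alternative for 12 of 40 in females and 10 of 42 in males, and the interaction for 27 of 42.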
